A study of Mus musculus with 12 samples.

Results

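Retinoid storage and metabolism in the mouse liver was followed through 9 genes: *Lrat*, *Rbp4*, *Adh1*, *Adh4*, *Rdh11*, *Aldh1a1*, *Cyp26a1*, *Rara* and *Rarb*. They were taken by name from the 41743 genes listed, and all 9 were found in both deposited tables and passed the filter on low values in every comparison. Whole-liver RNA came from 12 female mice aged 3 to 4 months, in 4 groups of 3. The YAP KO mice carried *Foxa3*-Cre, *Yap1* fl/fl and ROSA-stop fl/fl-EYFP on a C57BL/6 background, and their WT littermates form the group WT (C57BL/6). The YAP KO TAZ HET mice lost both *Yap1* alleles and 1 allele of *Wwtr1*, the gene of TAZ, through the same Cre on a mixed C57BL/6-FVB background, and their WT littermates form the group WT (mixed). The labels call the controls wild type without naming their Cre or floxed alleles. *Foxa3*-Cre acts in the foregut endoderm, from which hepatocytes and bile duct cells descend, whereas stellate cells are of another origin; where else the Cre acted was not tested here. The lost *Wwtr1* allele, the strain background, the floxed *Yap1* stock and the EYFP reporter, named for YAP KO alone, change together, so they cannot be told apart between the models.

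Vitamin A reaches the liver as retinyl esters in lipoprotein remnants. Hepatocytes hydrolyse the esters, and retinol is either bound to RBP4 and sent into the plasma together with transthyretin or handed to stellate cells, where LRAT joins it to a fatty acid for storage in lipid droplets. Inside cells, alcohol and retinol dehydrogenases oxidise retinol to retinal, ALDH1A enzymes oxidise retinal to retinoic acid, and CYP26 enzymes break retinoic acid down. Retinoic acid acts through the receptors RARα, RARβ and RARγ, each paired with an RXR, and *Cyp26a1* and *Rarb* are textbook direct targets of these receptors.

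In the genome build GRCm38, *Adh1* (ENSMUSG00000074207) spans chr3:138260991-138290698 and *Adh4* (ENSMUSG00000037797) chr3:138415466-138430892, with 124.8 kb between them in the alcohol dehydrogenase cluster that also holds *Adh7* and *Adh5*. *Rbp4* (ENSMUSG00000024990, chr19:38116629-38125281) and *Cyp26a1* (ENSMUSG00000024987, chr19:37697798-37701536) are separated by 415.1 kb. *Lrat* (ENSMUSG00000028003) lies at chr3:82892579-82903973, *Rdh11* (ENSMUSG00000066441) at chr12:79174337-79192293 and *Aldh1a1* (ENSMUSG00000053279) at chr19:20492715-20643465. The receptor genes are *Rara* (ENSMUSG00000037992) at chr11:98927818-98974942 and *Rarb* (ENSMUSG00000017491) at chr14:16430839-16819156. All 9 are protein-coding in GENCODE M21, with the same ends as in the deposited tables, and none had another gene whose longest transcript matched its own at 90% identity or more over 30% of its length.

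The receptor's binding element is shown first, because *Cyp26a1* and *Rarb* are the members that report on retinoic acid itself. RAR and RXR bind a repeat of 2 half-sites, and a repeat with 5 bases between the half-sites (DR5) is the form best known from retinoic acid targets. The half-site AGGTCA, the closely related form AGTTCA, the form GGGTCA that opens with another purine, and the combined form GGTTCA were searched on both strands in RefSeq promoter windows of GRCm38.p6, each from 250 bases before to 50 bases after an annotated start. A DR5 was present in 32 of 32851 windows (0.0974%). Among the 15 windows of the 9 genes, 1 window of *Cyp26a1* and 1 of *Rarb* held one, and none of the 60 windows found for 44 of 62 other retinoid genes did. Both genes were known as targets beforehand, and the forms searched include the half-sites of both elements. These matches therefore locate the elements and test nothing about the genes. The 250 bases before these starts are given with the 2 half-sites of the DR5 in capitals; the element of *Cyp26a1* reads on the opposite strand, as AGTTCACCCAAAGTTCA from base -16 back to base -32, and that of *Rarb* as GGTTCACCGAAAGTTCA from base -53 to base -37.
Cyp26a1, chr19:37697558-37697807, plus strand: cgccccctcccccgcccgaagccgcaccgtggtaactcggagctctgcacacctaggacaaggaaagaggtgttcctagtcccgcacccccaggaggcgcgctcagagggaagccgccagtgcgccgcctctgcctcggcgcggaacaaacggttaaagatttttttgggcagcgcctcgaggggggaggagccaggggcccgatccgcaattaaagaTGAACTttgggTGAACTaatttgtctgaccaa
Rarb, chr14:16575477-16575726, minus strand: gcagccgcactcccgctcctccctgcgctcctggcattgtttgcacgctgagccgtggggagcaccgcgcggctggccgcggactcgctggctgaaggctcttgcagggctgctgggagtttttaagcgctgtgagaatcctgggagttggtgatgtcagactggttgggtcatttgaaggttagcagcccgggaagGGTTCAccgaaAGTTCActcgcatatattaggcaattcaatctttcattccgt

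A repeat with a spacer of 2 bases (DR2) was found in 88 windows (0.268%) and in none of the members. The letters GGAATG, the core of the TEAD element through which YAP and TAZ act, were found in 4817 windows (14.7%) and, among the members, in 1 window each of *Lrat*, *Aldh1a1* and *Rarb*. These matches describe letters in these windows and are not measurements of binding.

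Values are TPM, a transcript abundance normalized for length and library total, which sets genes on 1 scale. *Yap1* lay between 28.2 and 33.2 TPM in the 6 WT livers, between 1.67 and 3.72 TPM in YAP KO livers and between 8.63 and 11.5 TPM in the YAP KO TAZ HET livers. The log2 change of *Yap1* was -3.51 in the first model and -1.93 in the second. *Wwtr1* lay between 13.3 and 16.7 TPM in YAP KO livers, between 11.5 and 14.1 TPM in the YAP KO TAZ HET livers and between 6.26 and 8.38 TPM in WT livers; a value for the whole gene can hold reads from outside a deleted part, so it does not check the lost *Wwtr1* allele. For tests the TPM values were scaled between libraries by a trimmed mean of log ratios, and changes are log2 differences of scaled TPM + 1 with their SE, tested in limma with Benjamini-Hochberg adjustment at 0.05. The scaling lowers the knockout values: without it the median log2 change of all genes was 0.28 in the YAP KO comparison and 0.24 in that of YAP KO TAZ HET, and 84% and 82.2% of called genes were higher, against medians of -0.04 in both and shares of 51.3% and 50.2% with it. One library stood apart in a way that touches *Lrat*: of the 3 YAP KO TAZ HET livers, LM225 had the lowest TPM for 12 of 12 quiescent stellate cell markers, while it was the lowest for 25.5% of all genes. LM225 also had the lowest summed TPM of the 3 for hepatocyte, sinusoidal endothelial, macrophage and erythroid markers. Its sums were the highest of the 3 for activated stellate cell and biliary markers.

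In WT livers the retinoid genes spanned more than 3 orders of TPM. Over the 6 WT livers *Rbp4* had a median of 3783 TPM and *Adh1* 3432 TPM, with overlapping ranges. *Aldh1a1* followed at 720 TPM and *Adh4* at 105 TPM, each separate from its neighbours. *Rdh11* at 38.7 TPM and *Cyp26a1* at 19.9 TPM overlapped, as did *Rara* at 8.39 TPM and *Lrat* at 7.95 TPM, and *Rarb* was lowest at 2.14 TPM. The stellate cell enzyme and the receptors thus lay at the lower end of the TPM range.

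**Figure D1:**
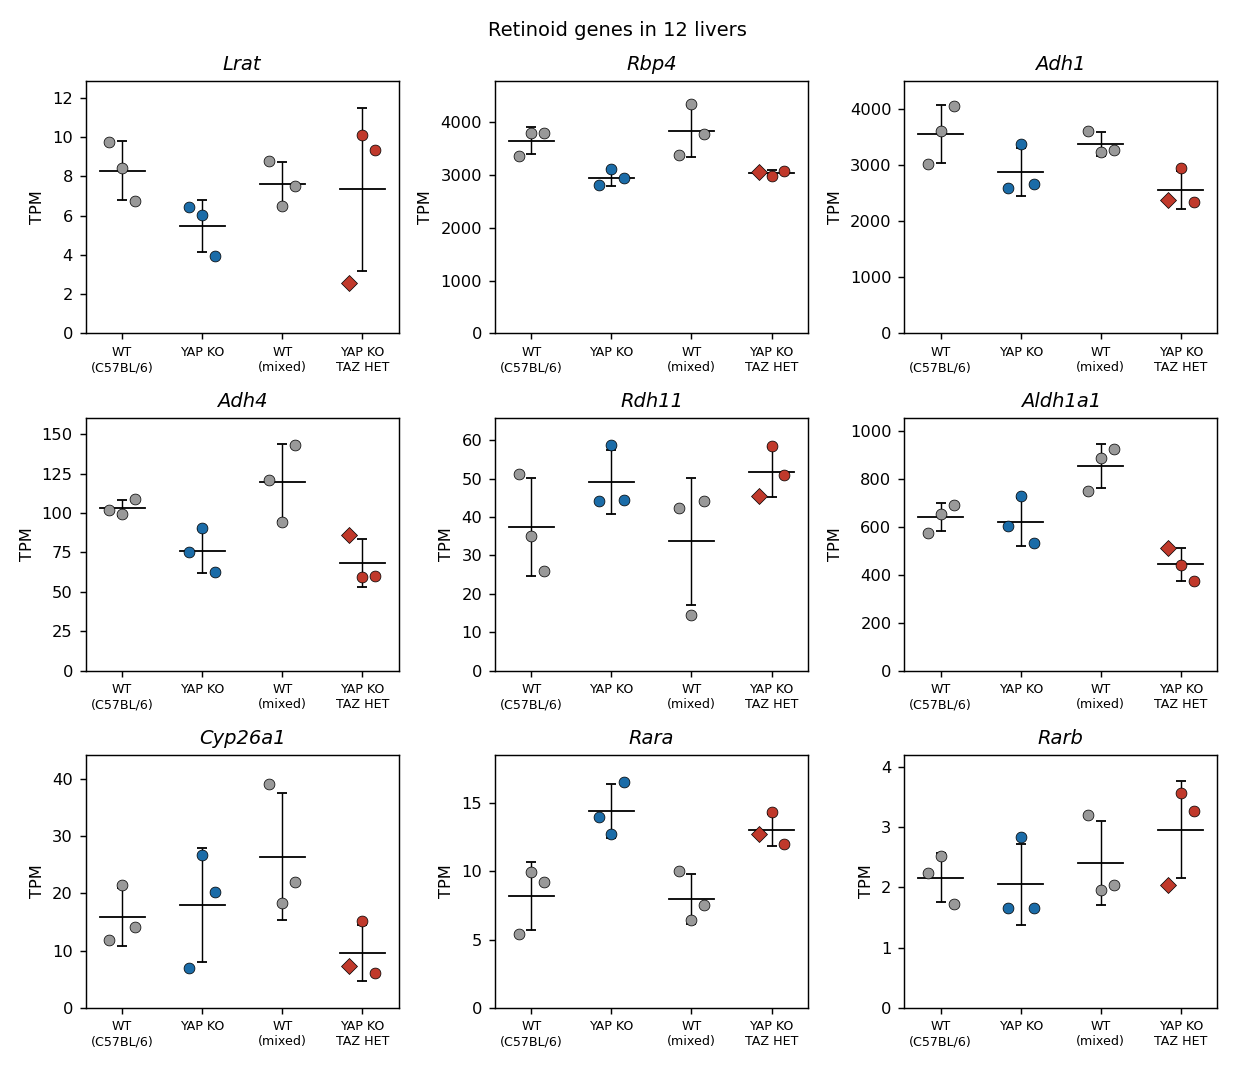
TPM (y axis, from 0, linear) of the 9 genes in every liver by group; points are livers, lines the group mean and bars the SD over 3 livers, and the diamond is YAP KO TAZ HET liver LM225. *Rbp4* and *Adh4* lay below their own WT livers in both models, *Aldh1a1* and *Cyp26a1* in YAP KO TAZ HET, and *Lrat* of LM225, at 2.59 TPM, lay far from the 10.1 and 9.33 TPM of the other two.

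On the scaled values *Rbp4*, *Adh1* and *Adh4* were called lower in both models, and no member was called higher. In YAP KO livers 4 of 9 genes fell, *Lrat*, *Rbp4*, *Adh1* and *Adh4*, where 36.7% of the 11704 tested genes were called, 17.9% lower and 18.8% higher. In YAP KO TAZ HET livers 5 of 9 fell, *Rbp4*, *Adh1*, *Adh4*, *Aldh1a1* and *Cyp26a1*, where 38.2% of 11741 genes were called, 19% lower and 19.2% higher. The median log2 change of the 9 genes was -0.41 for YAP KO and -0.65 for YAP KO TAZ HET. Without scaling, 2 members were lower and 1, *Rara*, higher in YAP KO, and 4 lower and 1, again *Rara*, higher in YAP KO TAZ HET. Quantile normalization left 2 and 3 members called and ended the calls of *Rbp4* and *Adh1* in both models. Exact permutation tests of 3 livers against 3 cannot give a p below 0.1, so no permutation test of a single gene could pass 0.05.

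**Figure D2:**
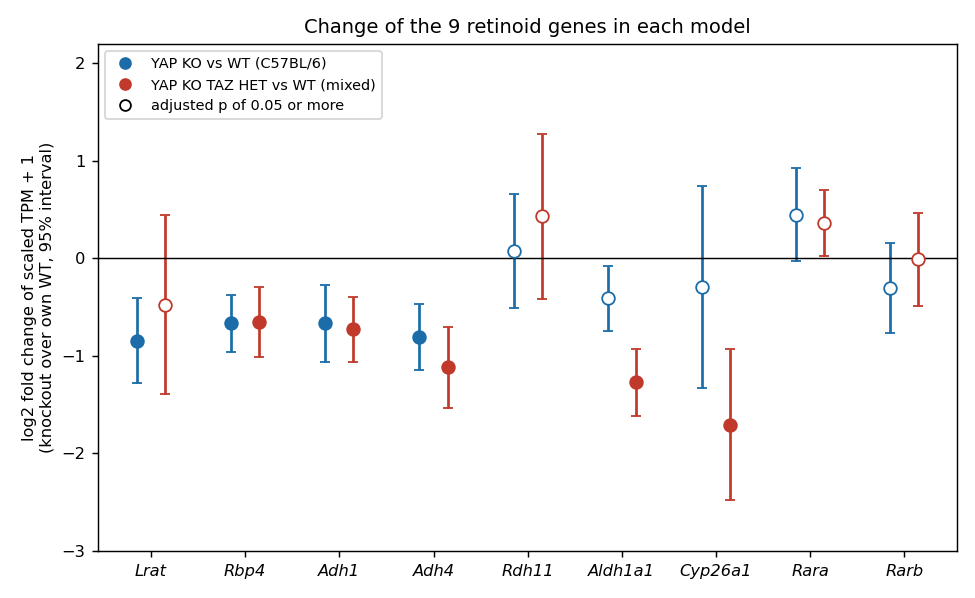
Log2 fold change of scaled TPM + 1 (y axis) for each gene in each knockout model against its own WT livers, with 95% intervals from limma; filled points had an adjusted p under 0.05. The changes of *Rbp4*, *Adh1* and *Adh4* were filled and below 0 in both models, from -0.65 to -1.12, and the widest intervals belonged to *Cyp26a1* in the first model and *Lrat* in the second.

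*Lrat*, the enzyme of retinyl ester storage, was lower in YAP KO livers. It measured 9.74, 8.42 and 6.73 TPM in WT (C57BL/6) livers LM75, LM192 and LM193, and 6.46, 6.01 and 3.94 TPM in YAP KO livers LM74, LM189 and LM191. All YAP KO livers were below all WT livers, and the log2 change was -0.84 ± 0.19 (adjusted p = 0.00992). Without scaling the change was -0.53 (adjusted p = 0.0595) and in a fit of all 12 libraries -0.85 (adjusted p = 0.0714), so both lost the call. In whole liver, fewer cells of a type and less RNA per cell cannot be told apart.

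In the other model *Lrat* was split. WT (mixed) livers LM226, LM227 and LM230 held 8.79, 6.50 and 7.49 TPM, and YAP KO TAZ HET livers LM225, LM250 and LM251 held 2.59, 10.1 and 9.33 TPM. One liver was below every WT liver and the others were above every WT liver. The log2 change was -0.47 ± 0.40 (95% interval -1.39 to 0.44, adjusted p = 0.384), and without LM225 it was 0.07 (adjusted p = 0.709).

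Because *Lrat* is a stellate cell gene, it was set beside 12 markers of quiescent stellate cells, none of which was at 0 in any liver. Their summed TPM was 251 to 270 in WT (C57BL/6), 175 to 216 in YAP KO and 264 to 275 in WT (mixed) livers; in YAP KO TAZ HET livers it was 142 in LM225 and 282 and 295 in the other two. In YAP KO, 4 of the 12 fell and 1 rose: *Ecm1*, a secreted matrix protein, with a log2 change of -1.53 ± 0.09, *Colec10*, *Rgs5* and *Vipr1*, against a rise of 1.85 ± 0.15 in *Pdgfrb*, the PDGF receptor that activated stellate cells raise. The 4 decreases stayed called in YAP KO without scaling, and *Reln*, *Des*, *Hand2* and the growth factor gene *Hgf* were then called higher too. Those unscaled rises were 0.51, 0.60, 0.66 and 1.02 (adjusted p = 0.021, 0.00727, 0.00506 and 0.0197). In YAP KO TAZ HET, 3 fell (*Ecm1*, *Colec10*, *Vipr1*) and 2 rose (*Pdgfrb* and *Hgf*) on the scaled values. The call of *Ecm1* in YAP KO TAZ HET was lost without any 1 of the 3 WT (mixed) livers (adjusted p from 0.0632 to 0.0732) and without scaling (0.0604).

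**Figure D3:**
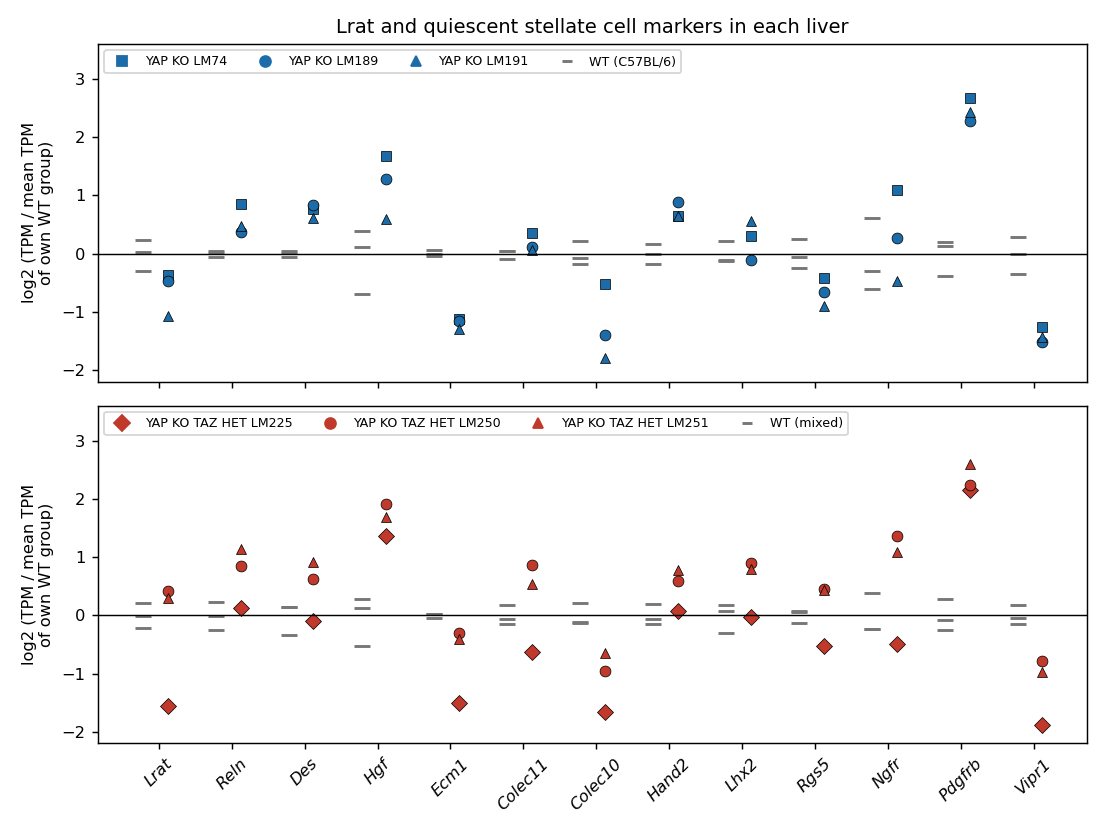
Log2 of each liver's TPM over the mean TPM of its own WT group (y axis) for *Lrat* and 12 quiescent stellate cell markers; dashes are WT livers and symbols single knockout livers. LM225 (diamond) was the lowest of its group for *Lrat*, at -1.55, and for every marker shown, while *Pdgfrb* was above the WT livers in all 6 knockout livers.

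Ratios within a library do not depend on scaling. Per *Reln*, which encodes the stellate cell protein reelin, *Lrat* was 0.964 ± 0.19 (SD, n = 3) in WT (C57BL/6) and 0.429 ± 0.11 in YAP KO livers, without overlap (exact permutation p = 0.1, the smallest possible). In the other model this ratio overlapped, at 0.953 ± 0.24 against 0.498 ± 0.20 (exact permutation p = 0.2). Per *Des*, which encodes desmin, it was 2.47 ± 0.52 against 0.965 ± 0.19 for YAP KO and 2.09 ± 0.21 against 1.29 ± 0.51 for YAP KO TAZ HET, without overlap (exact permutation p = 0.1 in both). Both denominators were themselves higher on TPM in YAP KO livers: *Reln* was 8.31 to 8.92 in WT (C57BL/6) and 11.1 to 15.5 in YAP KO, and *Des* 3.24 to 3.47 against 5.17 to 6.01. In YAP KO TAZ HET *Des* was 3.44 in LM225 and 5.68 and 6.94 in the others, against 2.89 to 4.06 in WT (mixed), while mean *Lrat* was 7.33 TPM against 7.59 TPM. *Reln* and *Des* are 2 of the 12 markers, chosen after their values were seen and neither of them called in either model on the scaled values. Both were called higher in YAP KO without scaling, as given above. Other markers fell further than *Lrat* in YAP KO livers, so the ratio depends on the marker chosen. As log2 of TPM over the WT mean, *Lrat* was -0.36 to -1.07, *Ecm1* -1.13 to -1.29 and *Vipr1* -1.26 to -1.51. Per 100 TPM of the whole marker list the groups overlapped, at 3.22 ± 0.60 against 2.81 ± 0.50 (exact permutation p = 0.5) and 2.80 ± 0.37 against 2.85 ± 0.90 (exact permutation p = 0.9). In LM225 this ratio was 1.82, against 3.42 and 3.31 in the livers of the same group.

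The summed TPM of the 8 activated stellate cell and fibroblast markers was higher in every knockout liver than in its own WT livers. It was 22.2 to 41.1 in WT (C57BL/6) and 223 to 303 in YAP KO livers. In the other model it was 19.2 to 43.6 in WT (mixed) and 123 to 189 in YAP KO TAZ HET livers. Of the 7 markers tested, 5 rose with YAP KO and 4 with YAP KO TAZ HET, among them the collagen gene *Col1a1* by 4.02 ± 0.25 and 3.11 ± 0.36. *Acta2*, of the same list, did not follow. Without scaling it changed by 0.68 (adjusted p = 0.227) in YAP KO and -0.59 (adjusted p = 0.301) in YAP KO TAZ HET, where unscaled *Col1a1* changed by 4.33 and 3.38. On scaled values *Acta2* ranged from -1.37 to -0.44 in the second model over fits that left out a liver, and it was called lower in 1 of 6. The part of these cell types in the *Lrat* values was not tested.

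*Rbp4*, the carrier that takes retinol out of the liver, fell in both models. Its TPM was 3364, 3792 and 3806 in WT (C57BL/6) and 2804, 3113 and 2944 in YAP KO livers. In the second model it was 3383, 4352 and 3774 in WT (mixed) and 3058, 2986 and 3086 in YAP KO TAZ HET livers. In both models every knockout liver was below every WT liver, and the changes were -0.67 ± 0.13 (adjusted p = 0.00468) and -0.65 ± 0.16 (adjusted p = 0.0125). On deposited TPM the ratio of the means was 0.808 and 0.793; the log2 change without scaling was -0.31 (adjusted p = 0.0353) and -0.33 (adjusted p = 0.073), so the second call rested on the scaling.

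The partner of RBP4 in plasma, transthyretin, fell as well. *Ttr* went from between 7123 and 7501 TPM to between 4146 and 4354 TPM in YAP KO (-1.13 ± 0.13, adjusted p = 0.000398) and from between 6915 and 8889 TPM to between 4634 and 5397 TPM in YAP KO TAZ HET (-0.93 ± 0.18, adjusted p = 0.00491). The ratio of *Ttr* to *Rbp4* was 2.0 ± 0.14 in WT (C57BL/6) and 1.45 ± 0.045 in YAP KO livers, without overlap (exact permutation p = 0.1), and it overlapped in the other model (2.03 ± 0.33 against 1.66 ± 0.12, exact permutation p = 0.3). *Rbp4* per *Alb*, albumin being the main plasma protein of hepatocytes, was 4.66% ± 0.13 against 4.92% ± 0.20 and 5.10% ± 0.52 against 5.02% ± 0.79, with overlap in both models. Relative to *Rbp4*, then, *Ttr* separated the groups in YAP KO livers alone, while *Rbp4* relative to *Alb* separated them in neither model. The denominator *Alb* was itself lower, by -0.38 (adjusted p = 0.0566) and -0.30 (adjusted p = 0.282) without scaling, close to the changes of *Rbp4*.

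*Adh1*, the class I alcohol dehydrogenase and the most abundant retinol oxidising enzyme of the set, was lower in both models on the scaled values. It measured 3021, 3600.0 and 4044 TPM in WT (C57BL/6) and 2591, 3367 and 2666 TPM in YAP KO livers, and these groups overlapped. It measured 3611, 3226 and 3265 TPM in WT (mixed) and 2379, 2948 and 2345 TPM in the YAP KO TAZ HET livers, without overlap. The changes were -0.67 ± 0.17 (adjusted p = 0.0173) and -0.73 ± 0.15 (adjusted p = 0.00554). The YAP KO call was the least firm of the set: it was lost without scaling (-0.31, adjusted p = 0.123), without YAP KO liver LM191 (adjusted p = 0.0609) and without WT liver LM193 (adjusted p = 0.0648).

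*Adh4*, a further alcohol dehydrogenase of the family, gave a firm decrease in both models. It measured 102, 99.3 and 109 TPM in WT (C57BL/6) and 75.1, 90.2 and 62.7 TPM in YAP KO livers. It measured 121, 94.5 and 143 TPM in WT (mixed) and 86.1, 59.4 and 59.7 TPM in the YAP KO TAZ HET livers. No knockout liver reached a WT liver of its own background, and the changes were -0.81 ± 0.15 (adjusted p = 0.00394) and -1.12 ± 0.18 (adjusted p = 0.00207). Both calls held in all 13 alternative settings.

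Of the alcohol dehydrogenases of the same cluster on chromosome 3, *Adh7* and *Adh5* were also on the list, and others were not examined. *Adh7*, at chr3:138217760-138233382, measured 3.99 to 6.96 TPM in WT (C57BL/6) against 1.30 to 2.63 TPM in YAP KO (-1.59 ± 0.24, adjusted p = 0.00165) and 4.44 to 7.95 TPM against 2.0 to 2.84 TPM in YAP KO TAZ HET (-1.35 ± 0.19, adjusted p = 0.000969). *Adh5*, which also works as the formaldehyde dehydrogenase of most cells, changed by -0.46 ± 0.09 (adjusted p = 0.00443) and -0.52 ± 0.11 (adjusted p = 0.00629), but without scaling by -0.10 (adjusted p = 0.321) and -0.20 (adjusted p = 0.153). So the scaling decided the *Adh5* calls and did not decide those of *Adh4*.

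*Rdh11*, a reductase and dehydrogenase of the endoplasmic reticulum, did not pass in either model. It measured 51.3, 35.1 and 26.0 TPM in WT (C57BL/6) and 44.3, 58.7 and 44.6 TPM in YAP KO livers (0.07 ± 0.25, 95% interval -0.51 to 0.66, adjusted p = 0.844). It measured 42.3, 14.6 and 44.1 TPM in WT (mixed) and 45.6, 58.5 and 51.1 TPM in the YAP KO TAZ HET livers (0.43 ± 0.37, 95% interval -0.41 to 1.28, adjusted p = 0.386). The spread lay in the WT livers, where the 14.6 TPM of LM227 stood apart from the 42.3 and 44.1 TPM of its group.

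Of the 17 further genes of retinol oxidation and retinal reduction, 13 were tested in each model, with 5 lower and 2 higher in YAP KO and 6 lower and 2 higher in YAP KO TAZ HET. The larger of both rises was in *Dhrs9*, a short-chain dehydrogenase that oxidises retinol, from at most 0.693 TPM in the 6 WT livers to 18.7, 16 and 10.4 TPM in YAP KO and 7.48, 24.0 and 16.8 TPM in YAP KO TAZ HET (3.39 ± 0.25 and 3.54 ± 0.38, adjusted p = 5.29e-05 and 0.000293). *Retsat*, which saturates a double bond of retinol, fell from between 111 and 192 TPM to between 42.9 and 53.2 TPM (-1.89 ± 0.21, adjusted p = 0.000404) and from between 126 and 181 TPM to between 46.8 and 78.2 TPM (-1.79 ± 0.24, adjusted p = 0.000876). *Rdh7* fell by 0.87 and 0.89 on the log2 scale. *Rdh9* was called higher, by 0.29 ± 0.10 and 0.86 ± 0.15, but its YAP KO call was lost on leaving out any 1 liver (adjusted p from 0.0583 to 0.173), and its longest transcript is 99.5% identical over 97.1% of its length to that of *Rdh16f1*, so reads may be split between them.

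*Aldh1a1*, the main enzyme of the adult liver that turns retinal into retinoic acid, fell in YAP KO TAZ HET. It measured 750, 887 and 927 TPM in WT (mixed) and 514, 443 and 375 TPM in livers of YAP KO TAZ HET mice, a change of -1.27 ± 0.15 (adjusted p = 0.000434) that held in all 13 alternative settings. In the other model it measured 575, 655 and 690 TPM in WT and 602, 729 and 533 TPM in YAP KO livers, which overlapped (-0.41 ± 0.15, 95% interval -0.74 to -0.07, adjusted p = 0.0582). Without scaling the YAP KO change was -0.05 (adjusted p = 0.775), and without YAP KO liver LM189 or in a fit of all 12 libraries it passed (adjusted p = 0.0141 and 0.047).

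The relatives of *Aldh1a1* were measured beside it. *Aldh1a7*, a close relative with little activity on retinal, measured 110 to 144 TPM in WT (C57BL/6) and 284 to 343 TPM in YAP KO livers (0.93 ± 0.14, adjusted p = 0.00187), and 125 to 239 TPM against 229 to 276 TPM in the other model (0.17 ± 0.21, adjusted p = 0.546). The ratio of *Aldh1a1* to *Aldh1a7* was 5.02 ± 0.97 in WT (C57BL/6) and 1.95 ± 0.15 in YAP KO, and 5.11 ± 2.0 in WT (mixed) and 1.80 ± 0.38 in YAP KO TAZ HET, without overlap in either (exact permutation p = 0.1 in both). *Aldh1a7* was not chosen by the rule for named genes but as the nearest relative of a member, after its values were seen.

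Among the 6 further genes of retinal oxidation, 5 were tested, with 4 higher and 1 lower in YAP KO and 3 higher and 1 lower in YAP KO TAZ HET. *Aldh1a3*, an enzyme with high affinity for retinal, went from at most 0.491 TPM in WT livers to 1.39 to 2.01 TPM in YAP KO and 2.64 to 3.72 TPM in YAP KO TAZ HET (0.82 ± 0.16 and 1.37 ± 0.15, adjusted p = 0.00574 and 0.000276). The called decrease was *Aldh8a1*, at -0.52 ± 0.13 and -0.65 ± 0.12 (adjusted p = 0.0171 and 0.00371), and it was lost without scaling (adjusted p = 0.226 and 0.0953). The aldehyde oxidases rose, *Aox1* by 1.08 ± 0.18 and 0.71 ± 0.11 and *Aox3* by 0.82 ± 0.13 and 0.54 ± 0.10. Set on the same TPM scale, *Aldh1a3* remained far below *Aldh1a1* in every liver.

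*Cyp26a1*, which clears retinoic acid and is itself induced by it, fell in YAP KO TAZ HET. It measured 39.2, 18.3 and 22 TPM in WT (mixed) and 7.36, 15.1 and 6.04 TPM in the YAP KO TAZ HET livers. The knockout livers were all below the WT livers, and the change of -1.71 ± 0.34 (adjusted p = 0.00509) was the largest of any member and held in all 13 alternative settings. In the other model it measured 11.8, 21.5 and 14.2 TPM in WT and 7.03, 26.6 and 20.3 TPM in YAP KO livers, where 1 liver was below and 1 above all WT livers (-0.30 ± 0.45, 95% interval -1.33 to 0.74, adjusted p = 0.641); without scaling this change was 0.036.

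Of 3 further genes of retinoic acid breakdown, 2 were tested and 1 fell in both models. *Cyp26b1*, the form more typical of non-parenchymal cells, measured 2.14 to 3.66 TPM in WT (mixed) livers and 2.68, 13.3 and 10.1 TPM in LM225, LM250 and LM251 (0.90 ± 0.46, adjusted p = 0.154). The low value was again LM225, the liver with the lowest *Lrat*. Without LM225 the change passed (adjusted p = 0.000764), and it passed without no other liver (adjusted p from 0.191 to 0.425). In YAP KO the sign was the opposite: fits that left out a liver gave -0.80 to -0.37, with 1 of 6 called. *Cyp2c39*, a hepatic cytochrome P450 that hydroxylates retinoic acid, fell in both models, from 7.35 to 9.04 TPM to 2.80 to 3.81 TPM (-1.43 ± 0.16, adjusted p = 0.000347) and from 8.45 to 13.0 TPM to 3.81 to 5.01 TPM (-1.34 ± 0.16, adjusted p = 0.000504), with the reservation that its longest transcript is 93.6% identical to that of *Cyp2c38*.

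*Rara*, the receptor gene with the highest level of the RAR genes in WT livers, was higher on deposited TPM but did not pass on the scaled values. It measured 5.38, 9.98 and 9.26 TPM in WT (C57BL/6) and 14.0, 12.7 and 16.6 TPM in YAP KO livers. It measured 10.04, 6.46 and 7.51 TPM in WT (mixed) and 12.7, 14.4 and 12 TPM in the YAP KO TAZ HET livers. Knockout livers were above WT livers in both models, with scaled changes of 0.45 ± 0.21 (adjusted p = 0.123) and 0.36 ± 0.15 (adjusted p = 0.0816). Without scaling both passed, at 0.78 (adjusted p = 0.0197) and 0.66 (adjusted p = 0.0125), and without WT liver LM226 the second passed on scaled values (0.49, adjusted p = 0.037).

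*Rarb*, both a receptor gene and a retinoic acid target, stayed at the bottom of the range. It measured 2.24, 2.52 and 1.73 TPM in WT (C57BL/6) and 1.67, 2.83 and 1.65 TPM in YAP KO livers (-0.31 ± 0.20, 95% interval -0.77 to 0.16, adjusted p = 0.267). It measured 3.21, 1.96 and 2.04 TPM in WT (mixed) and 2.05, 3.56 and 3.28 TPM in the YAP KO TAZ HET livers (-0.01 ± 0.21, 95% interval -0.48 to 0.46, adjusted p = 0.975; 0.22 without scaling). Both groups overlapped in each model, so *Cyp26a1* and *Rarb*, the members with a DR5 in the windows printed above, had different outcomes in YAP KO TAZ HET: a call for the first and none for the second.

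Of 5 further receptor genes, all tested, 1 was higher and 1 lower in each model. *Rarg*, the RAR gene usually associated with skin, rose from 3.92 to 6.10 TPM to 10.1 to 12.6 TPM in YAP KO (0.79 ± 0.15, adjusted p = 0.00524) and from 3.83 to 5.59 TPM to 11.1 to 14.0 TPM in YAP KO TAZ HET (0.98 ± 0.16, adjusted p = 0.00241). *Rxra*, the main partner receptor in hepatocytes, was called lower at -0.50 ± 0.12 and -0.43 ± 0.14, but without scaling it changed by -0.14 (adjusted p = 0.356) and -0.11 (adjusted p = 0.615), and its second call remained in only 1 of 6 fits that left out a liver. The scale-free ratio of *Rara* to *Rxra* was 0.0512 ± 0.010 in WT (C57BL/6) and 0.101 ± 0.011 in YAP KO, and 0.0516 ± 0.012 in WT (mixed) and 0.0921 ± 0.022 in YAP KO TAZ HET, without overlap (exact permutation p = 0.1 in both).

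Among 6 further target genes of retinoic acid, 3 were tested. *Tgm2*, tissue transglutaminase, rose from 57 to 80.2 TPM to 334 to 419 TPM in YAP KO (2.09 ± 0.12, adjusted p = 1.64e-05) and from 51.6 to 74.4 TPM to 346 to 380 TPM in YAP KO TAZ HET (2.19 ± 0.14, adjusted p = 2.04e-05). *Rarres2*, which encodes chemerin, was called higher in YAP KO (0.45 ± 0.13, adjusted p = 0.0282) and lost the call without any 1 of LM189, LM191, LM192 and LM193 (adjusted p from 0.0893 to 0.0988). *Rarres1* did not pass in either model.

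The list of 62 other retinoid genes held calls in both directions. In YAP KO 48 were tested and 30 called (62.5%, beside 36.7% of all genes), 14 higher and 16 lower. In YAP KO TAZ HET 47 were tested and 28 called (59.6%, beside 38.2% of all genes), 11 higher and 17 lower. Their median log2 changes were -0.16 and -0.10, against -0.04 for all genes in both models. Without scaling the split was 17 higher and 10 lower in YAP KO and 17 higher and 12 lower in YAP KO TAZ HET. The list was written with earlier results of these livers known, so the share called is a description of these genes.

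**Figure D4:**
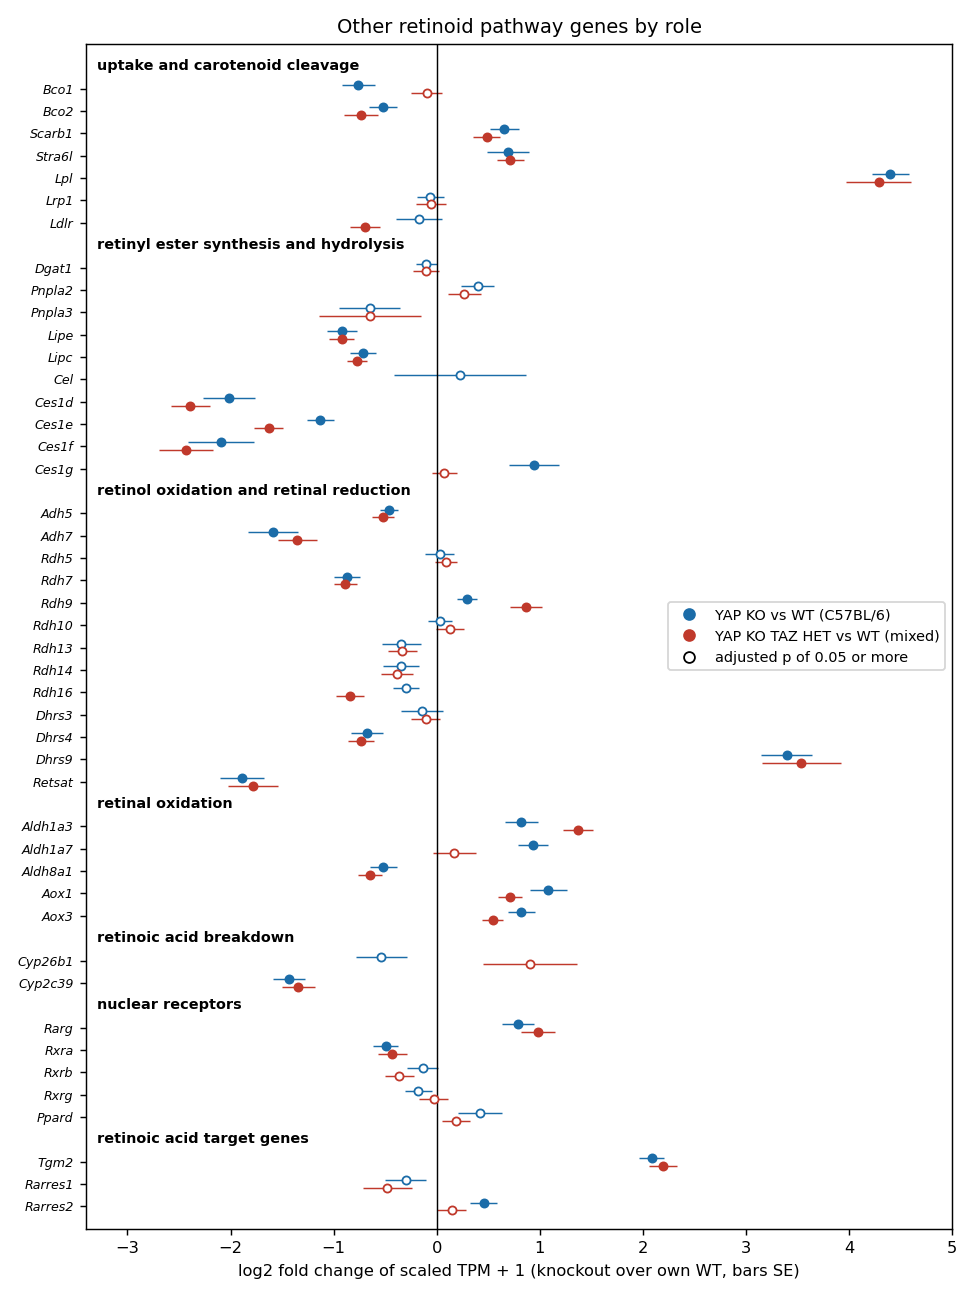
Log2 fold change of scaled TPM + 1 (x axis, bars SE) of tested genes of the other retinoid pathway roles, carriers left out, in each knockout model against its own WT livers; filled points had an adjusted p under 0.05. *Lpl* stands on the right at 4.40 and 4.29 with *Dhrs9* at 3.39 and 3.54, the carboxylesterases *Ces1d*, *Ces1e* and *Ces1f* on the left from -1.13 to -2.43, and points of the models lie close together for most genes.

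Of 8 uptake and carotenoid cleavage genes 7 were tested, with 3 higher and 2 lower in each model. *Lpl*, lipoprotein lipase, which is low in the adult liver and frees fatty acids and retinyl esters from lipoproteins, measured 5.80, 6.59 and 5.41 TPM in WT (C57BL/6) and 250, 182 and 135 TPM in YAP KO livers (4.40 ± 0.18, adjusted p = 2.95e-06). It measured 10.3, 4.15 and 8.03 TPM in WT (mixed) and 139, 206 and 250 TPM in the YAP KO TAZ HET livers (4.29 ± 0.31, adjusted p = 4.36e-05). *Stra6l*, a receptor for RBP4 in the liver, rose by 0.69 ± 0.20 (adjusted p = 0.0293) and 0.71 ± 0.13 (adjusted p = 0.00378), the first call remaining in 1 of 6 fits that left out a liver. *Bco2*, which cleaves carotenoids, fell by 0.52 and 0.73 on the log2 scale (adjusted p = 0.0184 and 0.0087), and neither call was kept without scaling (adjusted p = 0.272 and 0.0554).

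Of 10 genes of retinyl ester synthesis and hydrolysis, 5 of 10 tested fell and 1 rose in YAP KO livers, and 5 of 9 tested fell and none rose in the YAP KO TAZ HET livers. *Ces1d* went from between 731 and 1332 TPM to between 288 and 436 TPM in YAP KO (-2.02 ± 0.25, adjusted p = 0.000621) and from between 863 and 1287 TPM to between 217 and 318 TPM in YAP KO TAZ HET (-2.39 ± 0.19, adjusted p = 6.84e-05). *Ces1f* fell from between 403 and 453 TPM to between 86.4 and 216 TPM (-2.09 ± 0.32) and from between 424 and 457 TPM to between 62.0 and 145 TPM (-2.43 ± 0.26), and *Ces1e* by -1.13 ± 0.13 and -1.63 ± 0.14. *Lipe*, the hormone-sensitive lipase, and *Lipc*, the hepatic lipase, were the other called decreases in both models. *Pnpla2*, adipose triglyceride lipase, had changes of 0.40 (adjusted p = 0.0857) and 0.27 (adjusted p = 0.215), which passed without scaling at 0.75 and 0.59. *Dgat1*, *Pnpla3* and *Cel* were not called in either model, *Cel* being tested in YAP KO alone, and the sign of the small *Dgat1* changes, -0.10 in both models, turned without scaling. *Ces1g* was the exception of this family, with 131 to 290 TPM in WT (C57BL/6) and 502 to 523 TPM in YAP KO livers (0.94 ± 0.24, adjusted p = 0.0166), a call that was lost without LM189 or LM191 (adjusted p = 0.0565 and 0.0523), and 296 to 347 TPM against 414 to 450 TPM in the other model (0.07 ± 0.12, adjusted p = 0.676; 0.39, adjusted p = 0.0147 without scaling).

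The test of the difference between the models, over 12 libraries, called none of the 9 genes; 0.0576% of 12159 genes were called, and 2 members had an unadjusted p under 0.05. For *Aldh1a1* the YAP KO change exceeded the YAP KO TAZ HET change by 0.85 ± 0.22 (95% interval 0.38 to 1.33, adjusted p = 0.694). For *Cyp26a1* it exceeded it by 1.40 ± 0.64 (95% interval 0.01 to 2.79, adjusted p = 0.999). For *Rbp4* the difference was -0.03 ± 0.20 (95% interval -0.45 to 0.40) and for *Adh1* 0.05 ± 0.23 (95% interval -0.45 to 0.55). The calls of *Aldh1a1* and *Cyp26a1* in 1 model only were therefore not shown to differ between the models.

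The WT groups were compared with each other as well. Between WT (mixed) and WT (C57BL/6), 0.216% of 11126 genes were called and no member, with 2 members at an unadjusted p under 0.05. These were again *Aldh1a1*, higher in WT (mixed) by 0.35 ± 0.14 (95% interval 0.03 to 0.68, adjusted p = 0.807), and *Cyp26a1*, by 0.61 ± 0.26 (95% interval 0.01 to 1.22, adjusted p = 0.855). On TPM, *Aldh1a1* was 575 to 690 in the C57BL/6 and 750 to 927 in the mixed WT livers, without overlap, but the scaled values overlapped. The same WT (mixed) livers are the reference of the YAP KO TAZ HET values and enter the test of the difference, so the WT levels and the model difference of these genes are not independent.

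Hepatocyte markers were set beside the hepatocyte members. Of 6 markers, only *Alb* was called in YAP KO (-0.74 ± 0.18, adjusted p = 0.0151; adjusted p = 0.0566 without scaling and 0.0564 without WT liver LM193) and only *Tat* in YAP KO TAZ HET (-1.22 ± 0.22, adjusted p = 0.00343). *Apob* was called higher in YAP KO without scaling (0.41, adjusted p = 0.0077). The summed TPM of the 6 markers was 82843 to 95575 in WT (C57BL/6), 69506 to 78433 in YAP KO, 75870 to 95883 in WT (mixed) and 65134 to 81462 in YAP KO TAZ HET livers, none of the 6 being at 0. Of other cell types, 6 macrophage markers summed to 180 to 220 against 465 to 712 TPM and 166 to 346 against 713 to 893 TPM, and all 6 rose in both models. Biliary markers summed to 28.9 to 55.0 against 325 to 744 TPM and 43.3 to 60.1 against 101 to 218 TPM; sinusoidal endothelial markers to 81.0 to 90.1 against 66.9 to 98.9 TPM and 108 to 111 against 78.6 to 110 TPM; and erythroid markers to 1060 to 2202 against 1958 to 2179 TPM and 878 to 918 against 855 to 2730 TPM. Of 4 biliary markers tested, 2 rose in each model and 1 fell in YAP KO TAZ HET on the scaled values. Without scaling, *Sox9* and *Spp1* changed by 2.38 and 3.39 in YAP KO and by 1.94 and 1.65 in YAP KO TAZ HET. *Krt19*, the gene of CK19, changed by 0.37 (adjusted p = 0.468) and -0.81 (adjusted p = 0.187), also without scaling. *Epcam* changed by -0.16 (adjusted p = 0.733) and -1.33 (adjusted p = 0.0012), again without scaling. The paper saw no intrahepatic ducts in adults of either model by CK19 staining. Of 6 endothelial markers 3 fell in each model, and of 5 erythroid markers 1 rose in YAP KO. The part of these cells in the retinoid values was not tested.

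Across the 12 livers the members did not move as 1 group. The root-mean-square difference of centred log2 values, a measure that is 0 for genes of the same pattern, was 0.18 between *Rbp4* and *Adh1*, 0.22 between *Adh4* and *Aldh1a1* and 0.28 between *Adh1* and *Adh4*, whereas *Rdh11* and *Cyp26a1* differed by 0.95. Of all 12158 other genes, those nearest to *Rbp4* were *Acadvl* and *Cyb5a* (both 0.07), to *Adh1* *Smyd2* and *1700021F05Rik* (both 0.12), and to *Adh4* *Stard4* and *Fahd1* (0.18 and 0.19). Nearest to *Rdh11* were *Nsdhl* and *Fdps* (0.14 and 0.15), against a median of 0.54 over all genes. Nearest to *Aldh1a1* were *Naaladl2* and *Ugt2b36* (0.18 and 0.19), to *Rara* *Gm16867* and *Dhx29* (0.13 and 0.14), and to *Rarb* *Pde7b* and *Ndufaf5* (0.15 and 0.18). *Lrat* had *Tnfrsf11b* and *Fam167b* nearest (both 0.25, against a median of 0.59). *Cyp26a1* had *Rai2* and *Spry4* nearest (0.47 and 0.49), against a median of 0.84 over all genes.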

How the data were processed

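RNA of 12 whole livers was sequenced by Illumina. The authors processed the reads in CLC Genomics Workbench with the genome GRCm38.p6 and deposited TPM per gene and mouse, 1 table per model. The tables also hold the authors' edgeR comparisons (fold change, log2 fold change, p-value, false discovery rate and Bonferroni value), which were not used. Every TPM column was mapped to a mouse (0 left over). TPM keeps no read depth, so precision from depth is unknown and the spread between 3 mice is the only error; 14442 to 15047 genes were above 0 per library, and no libraries held identical values.

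TPM values were scaled by the unweighted trimmed mean of log ratios (30% of log ratios and 5% of levels trimmed at each end), and log2(scaled TPM + 1) was fitted in limma 3.58.1 (R 4.3.3; lmFit, eBayes with trend) over genes reaching 1 TPM in 3 or more libraries, two-sided, with Benjamini-Hochberg adjustment over all genes tested. A log2 change with 1 added understates changes of low genes. Each model used its own 6 libraries, the WT groups theirs, and the difference between the models all 12. The fits were tested on simulated data. Ratios within a library were tested by exact permutation, two-sided, without adjustment over the ratios, since no p could fall below 0.1. Sequences are from RefSeq windows; transcripts of 40523 genes were compared with blastn 2.17.0.

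The members and lists were chosen with earlier results of these data known. Named besides the members are, in each role or marker list, up to 3 genes with the largest mean change among those called in a model, genes on which a count turns, the 2 genes nearest in pattern to each member, and *Yap1* and *Wwtr1*. *Adh5*, *Aldh1a7*, *Cyp26b1*, *Rdh7*, *Rdh9*, *Aldh8a1*, *Pnpla2*, *Pnpla3*, *Dgat1* and *Cel* were added after their values were seen. So were *Acta2*, *Krt19*, *Epcam* and the denominators of the ratios. The marker lists were hepatocyte, quiescent stellate, activated stellate and fibroblast, biliary, sinusoidal endothelial, macrophage and erythroid. Some genes of the wider list are not reported here by name.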

Additional observations from a re-analysis of the deposited data

How the results depend on the processing

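Depth is unknown for TPM, and 3 livers per group limit each comparison. No paired analysis was possible because the groups share no replicate numbers. Alternatives were other pseudocounts (0.1) and filters (none, or 5 TPM), quantile normalization or none, a robust prior for the variances, a joint fit of all 12 libraries, and each liver left out in turn; *Rarb* had no value at a minimum of 5 TPM. Quantile normalization left 2 members called for YAP KO and 3 for YAP KO TAZ HET, with *Rbp4* and *Adh1* lost in both (adjusted p = 0.101 and 0.38, then 0.294 and 0.143); *Adh1* in YAP KO was also lost with no filter (adjusted p = 0.0504). Leaving out a liver gave 2833 to 4067 called genes in YAP KO TAZ HET (2833 without LM251), 3 to 20 for the difference between the models (20 without LM74, 15 without LM225, 4 without LM227, and 3 without LM193, LM226 or LM251) and 9 to 28 between the WT groups (14 without LM192, 12 without LM193, 10 without LM226, 9 without LM227 and 13 without LM230). For the difference, pseudocount 0.1 gave 3 called genes and no filter 2; between the WT groups, no filter gave 15. The counts of the wider list stayed within 24 to 30 called genes for YAP KO and 24 to 29 for YAP KO TAZ HET. Changes of sign, each in a value with no call, were as follows. Without scaling, *Cyp26a1* in YAP KO was 0.036, *Rarb* in YAP KO TAZ HET 0.22 and the *Rbp4* difference between the models 0.021. With livers left out, *Rdh11* ranged from -0.16 to 0.35 and *Cyp26a1* from -0.68 to 0.28 in YAP KO; in YAP KO TAZ HET, *Lrat* ranged from -0.76 to 0.069, *Rdh11* from -0.057 to 0.73 and *Rarb* from -0.13 to 0.19. The difference between the models ranged from -0.13 to 0.10 for *Rbp4*, -0.10 to 0.18 for *Adh1*, -0.67 to 0.12 for *Rdh11* and -0.15 to 0.21 for *Rara*. Between the WT groups the ranges were -0.11 to 0.14 for *Rbp4*, -0.036 to 0.27 for *Adh4*, -0.60 to 0.18 for *Rdh11*, -0.29 to 0.063 for *Rara* and -0.081 to 0.13 for *Rarb*. The calls of *Adh4* in both models and of *Aldh1a1* and *Cyp26a1* in YAP KO TAZ HET held in all 13 alternatives.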
